A study of Rattus norvegicus with 9 samples.

Results

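The endothelial miRNA miR-126a and the smooth muscle miRNAs miR-143 and miR-145 were followed through 9 small RNA libraries of cultured heart muscle cells in which Yap had been raised or lowered. Members were the 6 entries of the deposited miRNA table with these names, both arms of each hairpin, out of 1422 entries (653 with an annotated name). All 6 were read in every library, and all 6 passed the filter on low counts in every library of every group. The cells were primary neonatal rat cardiomyocytes (NRCMs) from SD rats 1 to 2 days old, infected with an adenovirus and taken after 48 h. The Ad-Yap WT group received a virus to overexpress Yap1. The Ad-Yap shRNA group received a virus to knock Yap1 down. The Ad-GFP group received a virus for green fluorescent protein and was the control, with 3 libraries in each group. The table measures miRNAs, so the level of Yap1 mRNA itself was not analysed here. All groups were thus infected, all were kept in normal glucose, and a virus with a non-targeting shRNA is not among them. A culture made by digesting whole newborn hearts can hold other heart cells beside muscle cells, and the labels give no sort or gate.

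miR-126 lies in an intron of Egfl7, a gene of endothelial cells. In mouse and zebrafish it is known for holding down inhibitors of growth factor signalling in vessels. miR-143 and miR-145 are made from a shared transcript. In mouse they are known as targets of serum response factor (SRF) with its partner myocardin, and they favour the contractile state of smooth muscle. Yap is a co-activator of the Hippo pathway that acts with TEAD factors, and its target genes overlap with those of SRF. Each hairpin yields a 5p and a 3p arm, of which one is usually kept on Argonaute and the other is largely lost.

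The mature sequences are shown because the seed, which selects the targets, differs between all 6 arms. They are given 5′ to 3′ from RefSeq (build GRCr8), where all 6 members were matched by name, with the seed (bases 2 to 8) in capitals.
rno-miR-126a-3p: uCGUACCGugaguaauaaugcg
rno-miR-126a-5p: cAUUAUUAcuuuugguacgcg
rno-miR-143-3p: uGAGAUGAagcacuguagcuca
rno-miR-143-5p: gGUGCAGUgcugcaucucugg
rno-miR-145-5p: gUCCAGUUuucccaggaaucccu
rno-miR-145-3p: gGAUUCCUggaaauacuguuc
No other mature rat miRNA in the RefSeq table has any of these seeds, so the 6 arms form 6 seed groups. The longest run of bases that a member shares with another annotated entry in RefSeq was 7 to 10 bases. Near-identical copies among these annotated entries were therefore not found, and the 769 predicted entries were not compared. The GC content was 38.1% in miR-126a-5p, 42.9% in miR-145-3p, 45.5% in miR-126a-3p and miR-143-3p, 52.2% in miR-145-5p and 61.9% in miR-143-5p.

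The hairpins of miR-143 and miR-145 are shown with both arms in capitals, since the results turn on how the arms of these neighbours differed.
Mir143: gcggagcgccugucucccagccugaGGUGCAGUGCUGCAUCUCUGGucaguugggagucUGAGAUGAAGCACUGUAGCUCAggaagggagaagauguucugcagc
Mir145: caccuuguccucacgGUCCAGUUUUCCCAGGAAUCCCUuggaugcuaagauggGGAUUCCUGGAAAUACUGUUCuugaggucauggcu
They lie on the minus strand of GRCr8 at chr18:57371349-57371453 and chr18:57369983-57370070, with 1278 bases between them. RefSeq places both inside Carmn, a long non-coding RNA gene. The arms of miR-126a lie on the plus strand of the same build, at chr3:29813182-29813202 for the 5p arm and chr3:29813219-29813240 for the 3p arm, inside the protein-coding gene Egfl7. rno-miR-126b, read from the opposite strand of that site, had at most 2 reads in any library and 0 in all 3 Ad-Yap shRNA libraries.

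The depth of the libraries differed with the groups, and this sets how levels can be compared. Summed miRNA counts were 1931204 to 2948713 reads in Ad-Yap WT, 1482367 to 2094541 in Ad-Yap shRNA and 3496284 to 3599483 in Ad-GFP. The library totals implied by the deposited RPM values (reads scaled to a fixed library total) were larger and ran the other way, and miRNA counts made up 8.76 to 17.6% of them in Ad-Yap WT, 7.22 to 9.87% in Ad-Yap shRNA and 24.6 to 26.2% in Ad-GFP. CPM stands below for read counts on a common scale after TMM normalisation among the miRNAs, and "rose" and "fell" are relative to the other miRNAs. edgeR's quasi-likelihood test was fitted to all 579 miRNAs that passed the filter, with Benjamini-Hochberg adjustment over them and a threshold of 0.05. The labels do not say that replicates came from separate cultures, so the p-values reflect only how far these libraries differ, and that spread may be technical. In bulk RNA, fewer cells of a type and less of a miRNA per cell cannot be told apart.

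Each hairpin had 1 abundant and 1 lesser arm, in the same order in all 9 libraries. Together the 6 members took 1.91 ± 0.18% of the miRNA counts in Ad-Yap WT, 2.05 ± 0.22% in Ad-Yap shRNA and 2.28 ± 0.040% in Ad-GFP (SD, n = 3 each). miR-143-3p was the leading member of Ad-GFP, at rank 31 to 33 among all entries, against 35 to 40 in Ad-Yap WT and 37 to 39 in Ad-Yap shRNA. miR-145-5p stood at rank 38 to 46 in Ad-Yap WT, 30 to 33 in Ad-Yap shRNA and 48 to 49 in Ad-GFP. These neighbours thus changed places in Ad-Yap shRNA, where miR-145-5p was the leading member in all 3 libraries. In Ad-Yap WT replicate 3 miR-145-5p also led, with 15813 reads against 14806 for miR-143-3p. miR-126a-3p stood at rank 47 to 49 in Ad-Yap WT, 41 to 50 in Ad-Yap shRNA and 47 to 58 in Ad-GFP. The arm miR-126a-5p ranked between 123 and 203, miR-145-3p between 289 and 393 and miR-143-5p between 405 and 489. In every library miR-126a-5p, miR-145-3p and miR-143-5p followed the 3 abundant arms in this order. A rank or read count compares entries as sequenced, and how efficiently each sequence is ligated was not tested.

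**Figure D1:**
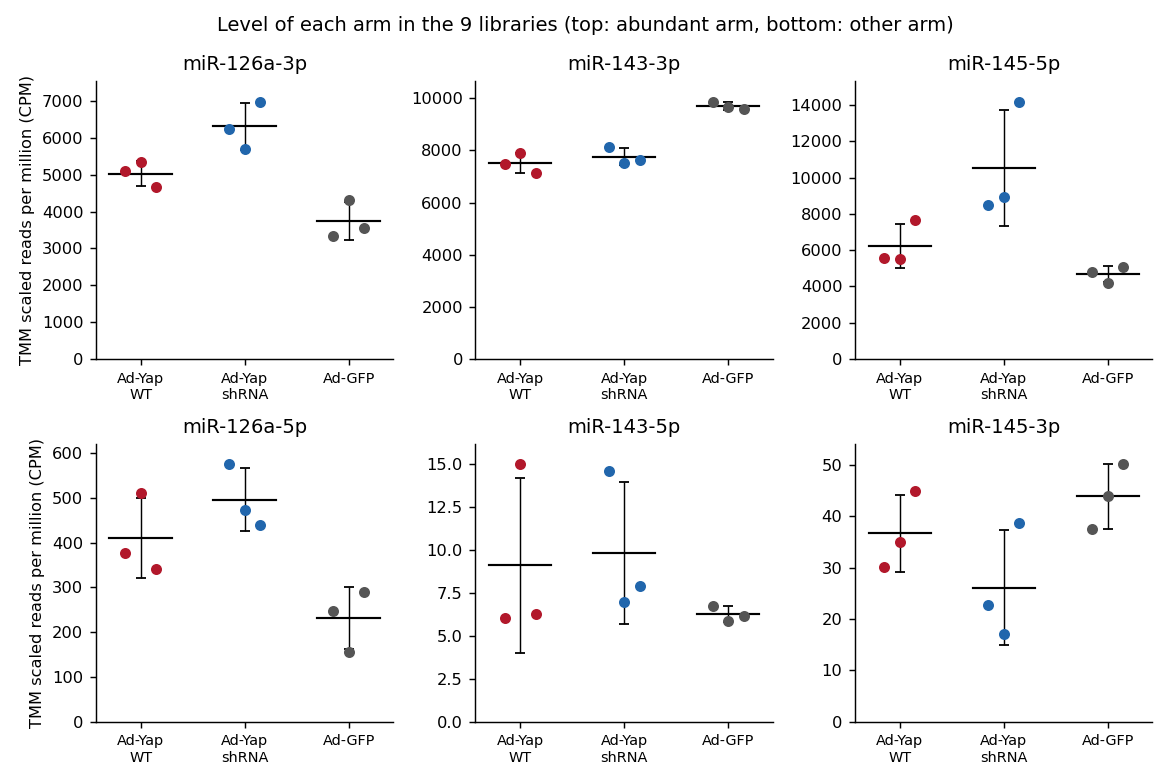
Level of each arm (y axis, CPM after TMM scaling, from 0) in Ad-Yap WT, Ad-Yap shRNA and Ad-GFP; points are libraries, wide lines means and bars 1 SD (n = 3). On this scale miR-126a-3p and miR-145-5p lie above Ad-GFP in all 6 Yap libraries and miR-143-3p lies below it in all 6, while miR-143-5p and miR-145-3p spread widely; with the deposited library totals all 6 arms lie lower in the Yap groups on average.

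The first comparison set Yap overexpression against Ad-GFP. Both arms of miR-126a rose and miR-143-3p fell on the TMM scale, while miR-145-5p, miR-145-3p and miR-143-5p did not pass. miR-126a-3p had 5106, 5337 and 4657 CPM in Ad-Yap WT, against 3330.5, 4320.5 and 3559 CPM in Ad-GFP. All 3 Ad-Yap WT libraries lay above all 3 Ad-GFP libraries, the closest being 4657 and 4320.5 CPM. By edgeR its log2 fold change was 0.43 (SE 0.12, adjusted p = 0.0401), and it turned to -0.87 (adjusted p = 0.0746) with the deposited library totals. This call was not firm: it ended in 8 of 9 fits that left out 1 library, with adjusted p from 0.0293 to 0.128, and under all 10 other settings tried.

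miR-126a-5p, the less abundant arm, had 377, 512 and 342 CPM in Ad-Yap WT, against 248, 156 and 291 CPM in Ad-GFP. The groups did not overlap, and Ad-GFP replicate 2 was the lowest library for this arm while it was the highest Ad-GFP library for the other. Its change was 0.82 on the log2 scale by edgeR (SE 0.25, adjusted p = 0.0477), turning to -0.53 with the deposited totals, and it ended in 7 of 9 fits without 1 library. miR-143-3p had 7495, 7911 and 7147 CPM in Ad-Yap WT, against 9869, 9651 and 9588 CPM in Ad-GFP. No Ad-Yap WT library reached the Ad-GFP range, and the Ad-GFP libraries lay close together (9703 ± 147 CPM, SD, n = 3). By edgeR this was a log2 change of -0.37 (SE 0.072, adjusted p = 0.0100), and it was negative and past the threshold under all 10 other settings of the whole fit, from -1.67 with the deposited totals to -0.37. Without Ad-Yap WT replicate 3 it stood at -0.34 (adjusted p = 0.0527).

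miR-145-5p, the partner of miR-143-3p on the same transcript, did not pass in this comparison. It had 5558, 5497 and 7633 CPM in Ad-Yap WT, against 4796, 4206 and 5094 CPM in Ad-GFP. The Ad-Yap WT libraries lay above the Ad-GFP libraries without overlap, but the edgeR log2 fold change of 0.41 (SE 0.22) did not pass (adjusted p = 0.215). miR-145-3p had 30.2, 35.1 and 44.9 CPM in Ad-Yap WT, against 37.6, 43.9 and 50.2 CPM in Ad-GFP, and these groups overlapped (edgeR, log2 change of -0.26, SE 0.30, adjusted p = 0.575). miR-143-5p rested on 20, 26 and 13 reads in Ad-Yap WT, against 30, 26 and 26 reads in Ad-GFP (edgeR log2 fold change 0.50, SE 0.41, adjusted p = 0.407). On the TMM scale this was 6.03, 14.97 and 6.28 CPM in Ad-Yap WT, against 6.76, 5.83 and 6.15 CPM in Ad-GFP. The positive sign rested on Ad-Yap WT replicate 2, without which the value was -0.029.

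In total 2 members rose, 1 fell and 3 did not pass in this comparison, with a median log2 fold change of 0.42. Over all 579 tested miRNAs 25% were called, 15.4% higher and 9.67% lower, and the median was 0.030. These were 89 higher and 56 lower, against 74 higher and 71 lower after upper quartile scaling. Scaling by library size alone gave 51 higher and 104 lower, and the deposited totals gave 10 higher and 312 lower. The libraries did not overlap for 4 of 6 members, against 47.3% of all tested miRNAs. With 6 members, of which pairs come from 1 hairpin, these shares describe the members and were not tested.

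Yap knock-down was set against the same Ad-GFP libraries, so the values of both comparisons share their control. Here miR-126a-3p, miR-126a-5p and miR-145-5p rose and miR-143-3p fell on the TMM scale. miR-145-5p had the largest log2 change of the 6 on this scale, with 8459.9, 8922 and 14181 CPM in Ad-Yap shRNA, against 4796, 4206 and 5094 CPM in Ad-GFP. Even the lowest Ad-Yap shRNA library was far above the highest Ad-GFP library. Ad-Yap shRNA replicate 3, the library with the fewest miRNA reads of all 9, had the highest value. In Ad-Yap WT the library with the fewest reads (replicate 2, 5497 CPM) lay close to the one with the most (replicate 1, 5558 CPM). The Ad-GFP libraries had the most miRNA reads and the lowest values. The part of depth in these values was not tested. The edgeR log2 fold change of miR-145-5p was 1.16 (SE 0.23, adjusted p = 0.00451). It was 0.91 without Ad-Yap shRNA replicate 3 (adjusted p up to 0.0202 over all 9 fits without 1 library) and 0.55 with library size only. With the deposited totals it was -1.09 and passed as a fall (edgeR adjusted p = 0.0171).

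miR-126a-3p had 6253, 5694 and 6985 CPM in Ad-Yap shRNA, against 3330.5, 4320.5 and 3559 CPM in Ad-GFP. Every Ad-Yap shRNA library was above every Ad-GFP library, by 0.76 on the log2 scale (edgeR, SE 0.13, adjusted p = 0.00231). miR-126a-5p had 575, 473 and 439.9 CPM in Ad-Yap shRNA, against 248, 156 and 291 CPM in Ad-GFP (edgeR log2 fold change 1.10, SE 0.25, adjusted p = 0.00949). Both calls held in all 9 fits without 1 library. Both arms of the endothelial hairpin were thus higher relative to other miRNAs, though at 0.16 and 0.52 they did not pass with library size only. With the deposited totals they turned to -1.45 and -1.07 and passed as falls (edgeR adjusted p = 0.00503 and 0.0471).

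miR-143-3p had 8125, 7522 and 7639 CPM in Ad-Yap shRNA, against 9869, 9651 and 9588 CPM in Ad-GFP. It was lower in every Ad-Yap shRNA library, with an edgeR log2 fold change of -0.32 (SE 0.072, adjusted p = 0.00827) that stayed negative and past the threshold in all 9 fits without 1 library and under all 10 other settings. Those settings gave values from -2.52 with the deposited totals to -0.32. miR-145-3p had 22.7, 17.0 and 38.6 CPM in Ad-Yap shRNA, against 37.6, 43.9 and 50.2 CPM in Ad-GFP. Only Ad-Yap shRNA replicate 3 reached into the Ad-GFP range. By edgeR this was a log2 change of -0.76 (SE 0.31, adjusted p = 0.0829), and it passed with DESeq2 (-0.85, adjusted p = 0.0261), cyclic loess (-0.92, adjusted p = 0.0414) and without Ad-Yap shRNA replicate 3 (-1.12, adjusted p = 0.0133). miR-143-5p had 27, 9 and 9 reads in Ad-Yap shRNA, against 30, 26 and 26 reads in Ad-GFP (edgeR log2 fold change 0.68, SE 0.42, adjusted p = 0.236). After TMM scaling these were 14.6, 6.96 and 7.90 CPM in Ad-Yap shRNA, above the 6.76, 5.83 and 6.15 CPM in Ad-GFP, while the reads themselves were mostly fewer. Without Ad-Yap shRNA replicate 1 the log2 fold change was 0.27.

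Of the 6 members 3 rose, 1 fell and 2 did not pass with Ad-Yap shRNA, with a median log2 fold change of 0.72. Of all tested miRNAs 41.8% were called, 24% higher and 17.8% lower, with a median of 0.039. These were 139 higher and 103 lower, but scaling by library size alone gave 66 higher and 221 lower, and the deposited totals gave 14 higher and 479 lower. The libraries of 5 of 6 members did not overlap, against 55.3% of all tested miRNAs. Among the 102 miRNAs with a mean of at least 1000 CPM, which include the 3 abundant arms, the median was 0.23 with Ad-Yap shRNA and 0.20 with Ad-Yap WT. miR-143-3p was thus 1 of 18 abundant miRNAs that fell with Ad-Yap shRNA and 1 of 11 with Ad-Yap WT, while 46 and 29 rose.

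The 2 Yap groups were then compared with each other, which is the test of whether raising and lowering Yap differ. The fit held all 9 libraries, so the Ad-GFP libraries entered its filter, its scaling and its estimate of spread. miR-145-5p was lower in Ad-Yap WT than in Ad-Yap shRNA, with 5558, 5497 and 7633 CPM in Ad-Yap WT, against 8459.9, 8922 and 14181 CPM in Ad-Yap shRNA. The groups did not overlap (edgeR log2 fold change -0.76, SE 0.22, adjusted p = 0.0381). The call ended in 6 of 9 fits without 1 library, with adjusted p from 0.0267 to 0.115. Among these 6 were the fits without Ad-GFP replicate 1, 2 or 3 (edgeR adjusted p = 0.0627, 0.0536 and 0.0595). In a fit of the 2 Yap groups alone the value was -0.75 and did not pass (edgeR adjusted p = 0.0798). Without Ad-Yap shRNA replicate 3 the value was -0.51. With the deposited totals it turned to 0.17 (adjusted p = 0.724). miR-126a-3p was also below Ad-Yap shRNA in every Ad-Yap WT library, without passing (edgeR, log2 change of -0.33, SE 0.12, adjusted p = 0.0868). miR-126a-5p was at -0.27 (SE 0.25, adjusted p = 0.444) and miR-143-3p at -0.046 (SE 0.072, adjusted p = 0.679), both with overlapping groups. miR-145-3p was at 0.50 (SE 0.31, adjusted p = 0.267) and miR-143-5p at -0.18 (SE 0.43, adjusted p = 0.787). In sum 0 members rose and 1 fell, with a median of -0.23, while 28.5% of all tested miRNAs were called, 14.2% higher and 14.3% lower, with a median of -0.043. These were 82 higher and 83 lower, but scaling by library size alone gave 114 higher and 38 lower, and the deposited totals gave 110 higher and 8 lower. Libraries did not overlap for 2 of 6 members, against 43.4% of all tested miRNAs.

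**Figure D2:**
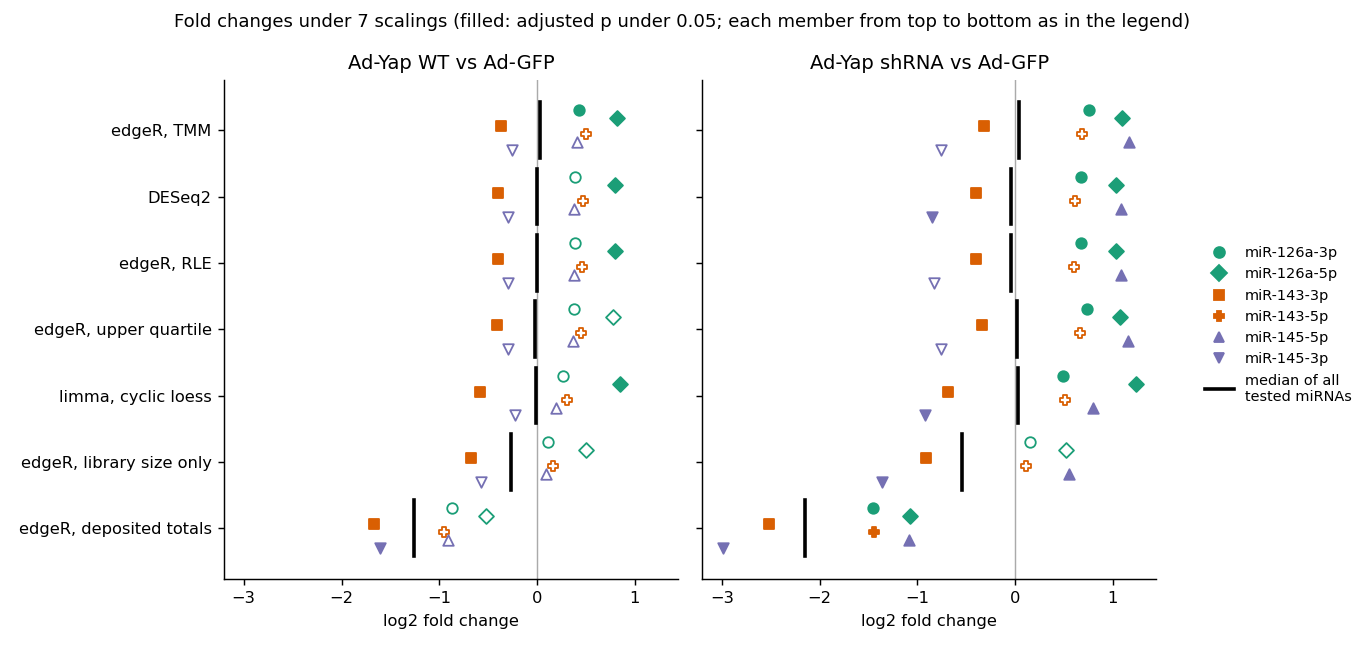
log2 fold change (x axis) of the 6 arms against Ad-GFP under 7 scalings or tools (rows), for Ad-Yap WT on the left and Ad-Yap shRNA on the right; filled symbols passed an adjusted p of 0.05 and black bars are the median of all tested miRNAs. With the deposited totals all 6 arms shift to below 0 together with the median, which lies at -1.26 and -2.15, while miR-143-3p and miR-145-3p stay to the left of the median and the other 4 arms to its right in every row.

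The deposited RPM values ran lower in both Yap groups for all 6 members. miR-126a-3p had 642 ± 323 RPM in Ad-Yap WT and 428 ± 104 RPM in Ad-Yap shRNA, against 1169.7 ± 151 RPM in Ad-GFP (SD, n = 3 each). miR-143-3p had 955 ± 465 RPM in Ad-Yap WT and 532 ± 155 RPM in Ad-Yap shRNA, against 3042 ± 131 RPM in Ad-GFP. miR-145-5p had 781 ± 335 RPM in Ad-Yap WT and 692 ± 126 RPM in Ad-Yap shRNA, against 1472 ± 141 RPM in Ad-GFP. These lower values stood beside a shift of the whole table, since with these totals the median over all tested miRNAs moved by -1.29 with Ad-Yap WT and by -2.19 with Ad-Yap shRNA. Relative to the median under the deposited totals, miR-143-3p lay at -0.41 and -0.37 in these comparisons, miR-145-5p at 0.35 and 1.06, and miR-126a-3p at 0.40 and 0.70. As a share of the miRNA counts alone, with no other factor, miR-126a-3p was at 0.501 ± 0.065% in Ad-Yap WT, 0.515 ± 0.052% in Ad-Yap shRNA and 0.462 ± 0.073% in Ad-GFP, which overlap within their spread. Whether the cells held more or fewer molecules of these miRNAs therefore cannot be told apart from the change in what the libraries contain.

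Ratios between entries of 1 library do not depend on any scaling of whole libraries, and they set miR-145-5p apart from miR-143-3p. Both hairpins are cut from the same transcript. miR-145-5p was read 0.742, 0.695 and 1.07 times as often as miR-143-3p in Ad-Yap WT. The ratio was 1.04, 1.19 and 1.86 in Ad-Yap shRNA and 0.486, 0.436 and 0.531 in Ad-GFP. All 6 Yap libraries exceeded all 3 Ad-GFP libraries, and both comparisons share the Ad-GFP libraries. On the TMM scale miR-145-5p lay above and miR-143-3p below Ad-GFP in all 6, so this separation follows from those values. How often other pairs of miRNAs separate in this way was not tested. The log2 ratio differed from Ad-GFP by 0.76 in Ad-Yap WT and by 1.45 in Ad-Yap shRNA, which is 1.70-fold and 2.73-fold. An exact permutation test (two-sided) gave p = 0.1 in both cases, the smallest that 3 libraries against 3 allow (0.171 after Benjamini-Hochberg adjustment over 12 tests of 4 ratios). Between Ad-Yap WT and Ad-Yap shRNA the difference was -0.69 with overlapping libraries (exact permutation p = 0.2, adjusted 0.300).

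**Figure D3:**
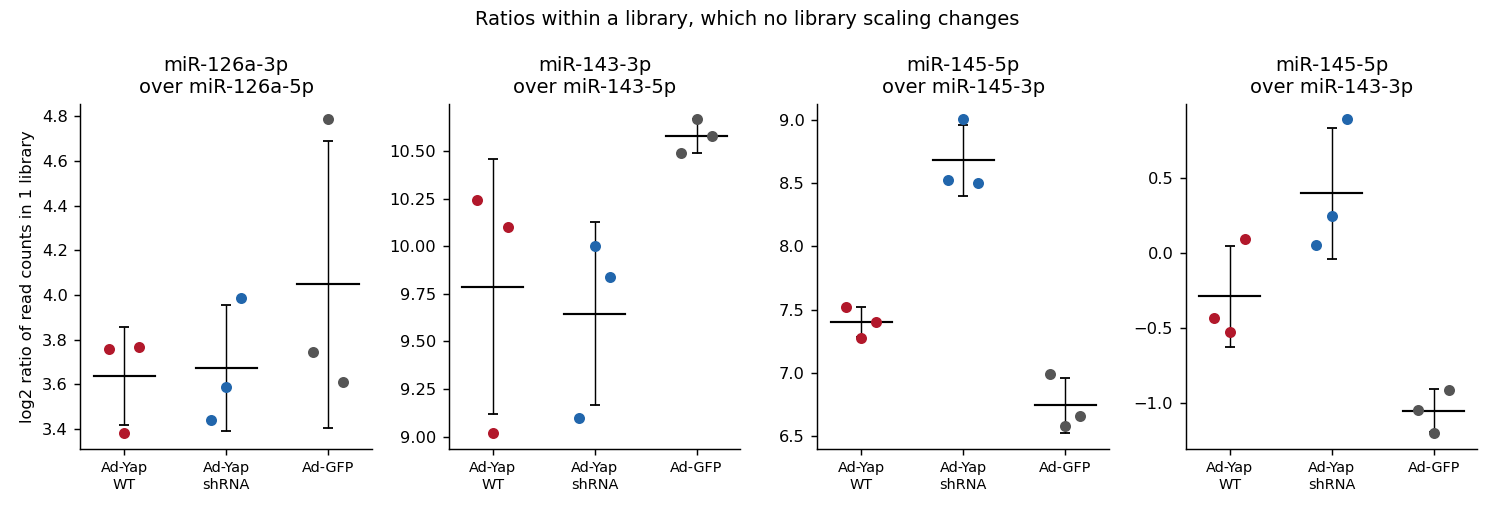
log2 ratio of read counts of 2 entries in the same library (y axis, a separate range in each panel), for Ad-Yap WT, Ad-Yap shRNA and Ad-GFP; points are libraries, wide lines means and bars 1 SD (n = 3). The ratio of miR-145-5p to its own 3p arm separates all 3 groups, at 7.40 ± 0.12, 8.68 ± 0.28 and 6.74 ± 0.22, and the ratio to miR-143-3p separates both Yap groups from Ad-GFP.

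Within the miR-145 hairpin the balance of the arms differed between the groups as well. miR-145-5p, the arm that carries the known regulatory role in smooth muscle, was read 184, 157 and 170.03 times as often as miR-145-3p in Ad-Yap WT, and 373, 524.5 and 367 times as often in Ad-Yap shRNA. In Ad-GFP the ratio was 128, 95.7 and 102. The 3 groups did not overlap with each other. The log2 ratio was higher by 0.66 in Ad-Yap WT and by 1.93 in Ad-Yap shRNA than in Ad-GFP, a 3.82-fold difference for Ad-Yap shRNA, and Ad-Yap WT was below Ad-Yap shRNA with a difference of -1.28. Each of the 3 exact permutation p-values was 0.1, the smallest possible, and 0.171 after adjustment over the 12 tests. The 3p arm rested on 61 to 100 reads in Ad-Yap WT, 22 to 44 reads in Ad-Yap shRNA and 167 to 212 reads in Ad-GFP, which limits the precision of these ratios.

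The ratio of the abundant to the lesser arm of miR-143 lay the other way, at a low read number. miR-143-3p was read 1242, 529 and 1139 times as often as miR-143-5p in Ad-Yap WT and 558, 1081 and 967 times as often in Ad-Yap shRNA, against 1461, 1656 and 1559 times in Ad-GFP. All 6 Yap libraries lay below the Ad-GFP libraries, with differences of -0.79 and -0.93 in the log2 ratio (exact permutation p = 0.1 each, adjusted 0.171). Without Ad-Yap WT replicate 2 the first difference was -0.41, and without Ad-Yap shRNA replicate 1 the second was -0.66. The 5p arm had only 9 to 30 reads in a library, so a few reads change this ratio. The arms of miR-126a kept their balance within the spread: the 3p arm was read 13.5, 10.4 and 13.6 times as often as the 5p arm in Ad-Yap WT, 10.9, 12.03 and 15.9 times in Ad-Yap shRNA and 13.4, 27.6 and 12.2 times in Ad-GFP. Ad-GFP replicate 2 stood apart from the other 8 libraries here, and without it the log2 difference from Ad-GFP was -0.043 with Ad-Yap WT and -0.0058 with Ad-Yap shRNA, against -0.41 and -0.38 with it.

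Groups that did not overlap in the balance of arms were common in these libraries. Of 118 annotated hairpins with both arms tested, the ratio of the arms did not overlap between the groups in 28.0% with Ad-Yap WT and 48.3% with Ad-Yap shRNA, each set against Ad-GFP, and in 30.5% between the Yap groups. Among the 3 hairpins described here this held for 2, 2 and 1 in the same order of comparisons. By size of the change with Ad-Yap shRNA against Ad-GFP, miR-145 stood at place 11 of 118 with 1.93, where the median of all pairs was 0.58 and 38 pairs changed by at least 1 on the log2 scale. miR-143 stood at place 45 and miR-126a at place 76. With Ad-Yap WT against Ad-GFP the places were 25 for miR-143, 36 for miR-145 and 57 for miR-126a, and the median change was 0.40. The arms differ widely in abundance and the libraries in depth, and the part of depth in these ratios was not tested. After cyclic loess, which removes a trend with abundance, miR-145-5p and miR-145-3p stood at 0.80 and -0.92 with Ad-Yap shRNA against Ad-GFP.

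Lists of other miRNAs put these values beside cell types and SRF. For all lists, edgeR on the TMM scale called 15.4% of all tested miRNAs higher and 9.67% lower with Ad-Yap WT against Ad-GFP. These shares were 24% and 17.8% with Ad-Yap shRNA against Ad-GFP, and 14.2% and 14.3% between the Yap groups. 4 other miRNAs linked to SRF were miR-1-3p and miR-133a-3p, which act in striated muscle, miR-133a-5p and miR-486. miR-133a-3p and miR-133a-5p are arms of miR-133a, so these entries are not independent. With Ad-Yap shRNA against Ad-GFP all 4 rose on the TMM scale (edgeR log2 fold changes of 0.82, 0.56, 1.98 and 0.54), with a median of 0.69, but with library size only 1 rose and 2 were negative, and with the deposited totals 3 fell. With Ad-Yap WT 0 rose and 1 fell, miR-133a-3p at -0.31 (adjusted p = 0.0310), with a median of -0.024, while 2 fell after cyclic loess and 3 with the deposited totals. On the same scale with Ad-Yap shRNA, miR-143-3p stood at -0.32 and miR-145-5p at 1.16. In Ad-Yap WT against Ad-Yap shRNA all 4 fell on the TMM scale, with a median of -0.86, but 3 fell with library size only, and 0 fell with the deposited totals, where the median was 0.039.

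The label of the cultures as heart muscle was set beside striated muscle miRNAs, a list that also holds all 4 SRF-linked ones. All 9 striated muscle miRNAs were read, including miR-208a-3p, miR-208b-3p and miR-499-5p, which are encoded in myosin genes, and 0 of them were at 0 in any group. Together they took 5.00 to 5.30% of the miRNA counts in Ad-Yap WT, 7.21 to 8.06% in Ad-Yap shRNA and 5.78 to 6.12% in Ad-GFP. With Ad-Yap shRNA against Ad-GFP 6 of 9 rose and 0 fell on the TMM scale (2 rose with library size only, and 8 fell with the deposited totals). Between the Yap groups 5 fell in Ad-Yap WT and 0 rose (4 fell with library size only, 0 with the deposited totals). The fibroblast and blood cell lists also had 0 miRNAs at 0, so being read does not tell these cell types apart. Over the 9 libraries miR-208a-3p and miR-208b-3p had means of 30.4 and 21.3 CPM. miR-499-5p had 30958 CPM and miR-199a-5p, a fibroblast miRNA, had 8745 CPM.

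Among markers of other cells, 0 fibroblast and 0 blood cell miRNAs rose against Ad-GFP in either Yap group on the TMM scale. The 4 fibroblast miRNAs took 1.26 to 1.60% in Ad-Yap WT, 0.427 to 0.564% in Ad-Yap shRNA and 1.93 to 2.19% in Ad-GFP, with 0 at 0. Of these 2 fell with Ad-Yap shRNA (4 by DESeq2), the arms miR-199a-3p (-1.67) and miR-199a-5p (-1.51), and 1 fell with Ad-Yap WT, miR-199a-3p (-0.43), against 2 by DESeq2 and 0 with no filter. With the deposited totals all 4 fell in both Yap groups. The list's median was -1.24 with Ad-Yap shRNA and -0.23 with Ad-Yap WT on the TMM scale, where miR-143-3p stood at -0.32 and -0.37. In Ad-Yap WT against Ad-Yap shRNA 2 fibroblast miRNAs rose, miR-199a-3p (1.23) and miR-199a-5p (1.33), and 0 fell. By DESeq2 3 rose there, and 4 with the deposited totals. The list's median between the Yap groups was 1.11 on the TMM scale, where miR-143-3p stood at -0.046. The 6 blood cell miRNAs took 0.0464 to 0.0946% in Ad-Yap WT, 0.0657 to 0.0742% in Ad-Yap shRNA and 0.115 to 0.121% in Ad-GFP, with 0 at 0. On the TMM scale 1 of 6 fell in each Yap group against Ad-GFP, miR-150-5p (-0.55) with Ad-Yap WT and miR-142-5p (-1.48) with Ad-Yap shRNA. Without passing, miR-142-3p (0.36) and miR-223-3p (0.16) were positive with Ad-Yap WT, and miR-150-5p (0.20) was positive with Ad-Yap shRNA. With the deposited totals 3 and 6 fell. With Ad-Yap WT 0 fell after cyclic loess, with no filter, with at least 10 CPM in 3 libraries and in the 2-group fit. The part of these cell types in the values of the members was not tested.

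Of 7 miRNAs linked to endothelial cells other than miR-126a, 6 were tested, and other cells express them too. They took 6.02 to 8.44% of the miRNA counts in Ad-Yap WT, 6.13 to 6.69% in Ad-Yap shRNA and 6.36 to 6.95% in Ad-GFP, and miR-126b was at 0 in Ad-Yap shRNA. With Ad-Yap WT 3 rose, miR-222-3p (1.09), miR-221-3p (1.03) and miR-92a-3p (0.24), and 0 fell, on the TMM scale. With Ad-Yap shRNA 4 rose, miR-24-3p (1.00), miR-23a-3p (0.55), miR-221-3p (0.40) and miR-92a-3p (0.29), and 0 fell. In that comparison 3 rose by DESeq2, 2 after upper quartile scaling and 1 with no filter. Cyclic loess gave 1 that rose and 1 that fell there. For Ad-Yap WT 4 rose by DESeq2, and 2 after upper quartile scaling, after cyclic loess and with no filter. With library size only 2 rose and 0 fell with Ad-Yap WT, and 1 rose and 2 fell with Ad-Yap shRNA. With the deposited totals 3 and 6 fell. miR-222-3p, which rose with Ad-Yap WT, was at 0.055 (adjusted p = 0.660) with Ad-Yap shRNA, where miR-126a-3p rose by 0.76. In Ad-Yap WT against Ad-Yap shRNA miR-222-3p (1.03) and miR-221-3p (0.63) rose and 0 fell, while DESeq2 gave 1 that fell.

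The 9 libraries also show which annotated miRNAs had a pattern most like that of 5 of the members, by Pearson's r of log2 CPM among the 428 annotated miRNAs tested. These values describe 9 libraries in 3 groups that share depth and scaling. miR-143-5p was left out because its mean was under 10 CPM. For miR-126a-3p they were miR-1306-5p (0.987), miR-19b-3p (0.943) and miR-23a-3p (0.917). For miR-143-3p they were miR-127-3p (0.958), miR-181a-2-3p (0.948) and miR-410-3p (0.938). For miR-145-5p they were let-7g-5p (0.967), miR-324-5p (0.925) and miR-181a-5p (0.925). For the lesser arm miR-126a-5p they were miR-93-3p (0.929), miR-18a-3p (0.927) and miR-154-3p (0.925), and for miR-145-3p they were miR-20b-5p (0.848), miR-1843a-3p (0.819) and miR-503-3p (0.803). The r between miR-143-3p and miR-145-5p, neighbours on 1 transcript, was -0.66, and that between miR-126a-3p and miR-145-5p was 0.80.

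The promoter windows of the host genes in RefSeq (GRCr8) were searched for 2 motifs on both strands. The CArG box, the element that SRF binds, was not found in the 1 window of Carmn or the 2 windows of Egfl7, and 1.64% of all 33469 windows hold it. The letters GGAATG, the core that TEAD factors bind, were not found in these windows either, and 14.2% of all windows hold them. A CArG box ends in the letters with which GGAATG begins, so matches of both can share bases. Their absence says only that these letters are not in these windows.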

How the data were processed

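Small RNA libraries (9, 3 per virus group) were made with a small RNA kit and sequenced as short single reads, per the labels' protocols, which also describe an mRNA step taken not to apply. Per the submitters' processing notes Bowtie2, DESeq2 and the rn6 build were used, with roles and versions not given in the sources used here. The table holds read counts per miRNA as deposited by the authors, not normalized, and RPM values as deposited by the authors, relative to a library total that is not explained and exceeds the summed miRNA counts. Replicates were not pooled, and the handling of reads that match several miRNAs is unknown. Group means in the table were not used.

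Counts were tested with edgeR 4.0.16 in R 4.3.3 (filterByExpr, TMM, glmQLFit and glmQLFTest, 1 mean per group over all 9 libraries, 579 miRNAs, common biological CV 45.1%, two-sided). The SE is the log2 fold change over the square root of F. Ratios within a library used counts plus 0.5 and exact permutation tests in scipy 1.17.1. Likeness used CPM plus 0.5. Alternatives were DESeq2 1.42.0, cyclic loess with limma 3.58.1, other scalings and filters, fits of 2 groups, a replicate block, and each library left out. All 6 members were named, and other miRNAs only from the stated lists or as the 3 most alike. The members and lists were chosen with earlier results of these data known. PCR copies are not separate molecules, which makes low counts less certain than they look.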

Additional observations from a re-analysis of the deposited data

How the results depend on the processing

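Values are log2 fold changes, followed in some brackets by the adjusted p. Calls differed mostly for miR-126a with Ad-Yap WT against Ad-GFP. There miR-126a-3p no longer passed with DESeq2 (0.39, 0.0573), RLE (0.39, 0.0876), upper quartile (0.38, 0.0895), library size only (0.12, 0.591), cyclic loess (0.26, 0.191), no filter (0.29, 0.357), at least 10 CPM in 3 libraries (0.42, 0.0731), 2-group fits (0.38, 0.127) and the replicate block (0.43, 0.0684). miR-126a-5p no longer passed with upper quartile (0.77, 0.0533), library size only (0.50, 0.169), no filter (0.72, 0.0998), 2-group fits (0.80, 0.0794) and the replicate block (0.84, 0.0894). With library size only miR-126a-3p (0.16) and miR-126a-5p (0.52) also missed the threshold with Ad-Yap shRNA against Ad-GFP. In that comparison miR-145-3p passed with DESeq2 (-0.85), library size only (-1.36), the deposited totals (-2.99), cyclic loess (-0.92) and the replicate block (-0.80). For Ad-Yap WT against Ad-Yap shRNA, miR-145-5p no longer passed with upper quartile (-0.79), library size only (-0.46) or 2-group fits (-0.75). There miR-143-3p changed sign with library size only (0.23) and cyclic loess (0.10), and miR-143-5p with library size only (0.052).

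The deposited library totals move all miRNAs of a library alike. With them, for Ad-Yap WT against Ad-GFP, miR-126a-3p (-0.87), miR-126a-5p (-0.53), miR-143-5p (-0.95) and miR-145-5p (-0.92) changed sign and miR-145-3p passed (-1.61). For Ad-Yap shRNA against Ad-GFP, miR-126a-3p (-1.45, 0.00503), miR-126a-5p (-1.07, 0.0471), miR-143-5p (-1.45, 0.0177) and miR-145-5p (-1.09, 0.0171) changed sign. Each of these passed the threshold as a fall, where on the TMM scale miR-143-5p had not passed and the others had risen. For Ad-Yap WT against Ad-Yap shRNA, miR-126a-3p (0.58), miR-126a-5p (0.54), miR-143-3p (0.84), miR-143-5p (0.50) and miR-145-5p (0.17) changed sign and miR-145-3p passed (1.38).

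Without 1 library, values ran from 0.35 to 0.55 for miR-126a-3p, 0.61 to 1.02 for miR-126a-5p, -0.41 to -0.34 for miR-143-3p and -0.029 to 0.75 for miR-143-5p with Ad-Yap WT against Ad-GFP. They ran from -1.12 to -0.52 for miR-145-3p with Ad-Yap shRNA against Ad-GFP. For Ad-Yap WT against Ad-Yap shRNA they ran from -0.70 to 0.23 for miR-143-5p, 0.25 to 0.85 for miR-145-3p and -0.95 to -0.51 for miR-145-5p. The cause of these changes was not tested. The 12 differences of ratios moved by less than the spread between replicates under both other pseudocounts and every left-out library. Between Ad-Yap WT and Ad-Yap shRNA the small difference for the arms of miR-126a ran from -0.15 to 0.12 without 1 library, and that for miR-143 from -0.13 to 0.53. Over all miRNAs, Ad-Yap WT against Ad-GFP gave 89 higher and 56 lower, but 54 and 36 with no filter, 52 and 19 without Ad-Yap WT replicate 3, and 58 and 25, 61 and 35, and 62 and 34 without Ad-GFP replicates 1, 2 and 3. The deposited totals gave 10 and 312 there, and 14 and 479 in place of 139 and 103 with Ad-Yap shRNA.

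Deviations of same-numbered libraries from their group means correlated at -0.34 to 0.34, and 2 libraries were most like one with their own number. The labels do not say whether equal numbers share a culture. With 3 libraries a group these correlations cannot settle whether the numbers pair the libraries. The block changed no call of a member beyond the 3 given above. Of the lists, the striated muscle, SRF-linked and blood cell lists each had 0 miRNAs that fell under the block with Ad-Yap WT against Ad-GFP, in place of 1. There 1 striated muscle miRNA rose in place of 0, and 2 endothelial-linked ones in place of 3. With Ad-Yap shRNA against Ad-GFP 3 endothelial-linked miRNAs rose in place of 4. Between the Yap groups 2 blood cell miRNAs rose in place of 1. Depth limits miR-143-5p most, at 9 to 30 reads.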
